A study of Saccharomyces cerevisiae with 8 samples.

Results

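The genes described here encode the nuclear subunits of the yeast respiratory chain and ATP synthase, together with cytochrome c and the NADH dehydrogenases. The members were a list of 37 gene symbols, and all 37 had at least 1 probe set naming that gene alone, among 5656 genes so measured on the array. By complex, 14 belong to ATP synthase (complex V), 9 to cytochrome c oxidase (complex IV), 9 to the cytochrome bc1 complex (complex III), 2 are the cytochromes c and 3 the NADH dehydrogenases. No succinate dehydrogenase (complex II) gene is on the list. Those genes are given further on beside it.

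Groups were 4 arrays labelled V81G and 4 labelled wild type (WT), each from a separate haploid strain of Saccharomyces cerevisiae in the W303a background. Per the labels, both groups share disruptions of HYP2 and ANB1, the native genes of the translation factor eIF5A, and live on human EIF5A1 carried by a plasmid. That protein is a temperature-sensitive point mutant, V81G, in the first group and unmutated in the second. All cultures were taken in early log phase at 25 °C, where the mutant grows, and no restrictive temperature is among these samples. Neither growth rate nor respiration was measured here.

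In the yeast respiratory chain, electrons from NADH enter through single-protein dehydrogenases and not through a proton-pumping complex I. They pass to coenzyme Q, then to the bc1 complex, cytochrome c and cytochrome c oxidase. ATP synthase uses the proton gradient that the chain builds. A few core subunits of complexes III, IV and V are made inside mitochondria from mitochondrial DNA, while the members here are made in the cytosol and imported. Transcription of many of them is raised on non-fermentable carbon sources by the Hap2/3/4/5 activator and lowered on glucose.

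Values are log2 intensities, on which a difference of 1 is a 2-fold change, and each difference is V81G minus WT with its standard error (SE). A gene was called when its limma p-value, adjusted by the Benjamini-Hochberg method over all 9275 probe sets tested, lay under 0.05. "Rose" and "fell" are used of called genes alone. With whole-culture RNA, less transcript per cell and fewer cells that express it cannot be told apart.

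Some facts of the arrays bear on every result. HYP2, described as disrupted in both groups, read 12.02 ± 0.23 in arrays labelled V81G and 15.42 ± 0.01 in arrays labelled WT (SD, n = 4 each). ANB1, the other gene described as disrupted, was bright in all 8 arrays, at 14.18 ± 0.20 in those labelled V81G and 14.04 ± 0.13 in those labelled WT, with a difference of 0.13 ± 0.14 (adjusted p = 0.59). Whether these probe sets lie in the disrupted stretches is not known here. The HYP2 level in arrays labelled WT, near the table's highest value, and the ANB1 level in both groups go against the labels, so groups are called by their labels throughout. Hybridization took 2 days, with the first 2 replicates of each group on day 1 and the last 2 on day 2. Anything else that differed between these replicates, such as culture or RNA preparation, cannot be told apart from the day. Station 2 of the fluidics stations took the V81G arrays of day 1, and station 1 the WT arrays, so station and group cannot be told apart on that day. Genes of chromosome VIII had a median difference of 0.46, against -0.09 for genes of the other nuclear chromosomes. Of the members, COX6 and QCR10 lie on chromosome VIII and the other 35 lie on 13 other nuclear chromosomes.

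Transcripts of these genes were lower in arrays labelled V81G. Of the 37 members, 32 fell, none rose and 5 did not pass the test. Over all genes 12.3% were called lower and 9.21% higher. No member was higher at an unadjusted p under 0.05 either, and 33 were lower. At that threshold 815 of all 5656 genes were higher and 1222 lower. The median difference of the members was -1.27, beside -0.08 over all genes, and 26 members fell at least 2-fold, beside 2.9% of all genes. Arrays of the groups did not overlap for 32 members, all of them lower in V81G, beside 16.7% of genes lower without overlap. The 32 called members and the 32 without overlap were the same genes. These counts describe a list that was proposed with results of these data known, and carry no test of the list.

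**Figure D1:**
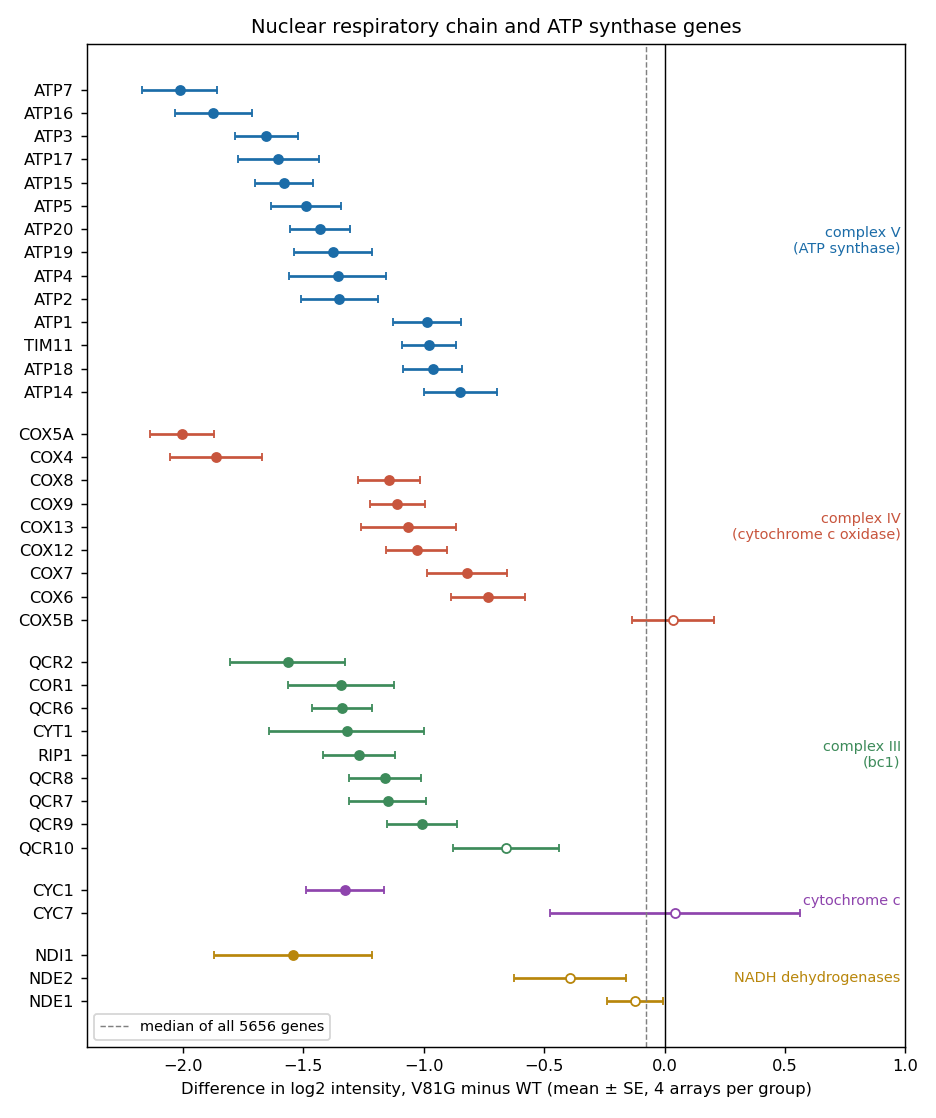
Difference in log2 intensity, V81G minus WT, of each member gene, sorted within its complex. Points are means and bars SE from 4 arrays per group, filled points passed the test, and the dashed line marks the median of all genes, -0.08. The 14 ATP synthase genes all lie between -2.01 and -0.85, while COX5B, CYC7, NDE1, NDE2 and QCR10 are the open points.

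All 14 genes of ATP synthase fell, with a median difference of -1.40. Its catalytic head, F1, is built from the alpha and beta subunits (ATP1 and ATP2) around a rotating stalk of gamma, delta and epsilon (ATP3, ATP16 and ATP15). The 5 genes differed by -0.99 ± 0.14, -1.35 ± 0.16, -1.65 ± 0.13, -1.87 ± 0.16 and -1.58 ± 0.12 in that order. The alpha and beta genes, whose proteins are present in equal numbers in the head, had the smaller falls of F1. The single-copy stalk subunits had the larger ones. ATP1 and ATP2 were also the brightest of the 5 in arrays labelled WT, at 14.09 and 13.80, so copy number and brightness cannot be told apart here. Whether these falls differ from each other was not tested.

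The peripheral stalk holds the head still against the rotor. ATP7, its subunit d (YKL016C), had the largest fall of all members. Its log2 intensity was 9.48, 9.79, 9.50 and 9.48 in V81G replicates 1 to 4, against 11.59, 11.55, 11.27 and 11.91 in WT replicates 1 to 4. Every array labelled V81G was more than 1 log2 unit below every array labelled WT. The difference was -2.01 ± 0.16, or 4.04-fold lower (adjusted p = 5.1e-05). ATP5, the oligomycin-sensitivity protein that ties the stalk to the head, fell by 1.49 ± 0.15, and ATP4, the long subunit b, fell by 1.36 ± 0.20.

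ATP14, subunit h of the same stalk, had the smallest fall of the complex. In V81G replicates 1 to 4 it read 12.63, 12.61, 12.49 and 13.06, against 13.72, 13.42, 13.49 and 13.54 in WT replicates 1 to 4. The groups were closer here but did not overlap, and the difference was -0.85 ± 0.15 (adjusted p = 0.0044). A second, dimmer probe set of ATP14 differed by -1.52 ± 0.17 (adjusted p = 3.7e-04), so the size of its fall depends on the probe set.

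The remaining 5 genes encode small membrane subunits next to the proton channel. ATP17 (subunit f) fell by 1.60 ± 0.17 and ATP18 (subunit i, also called j) fell by 0.96 ± 0.12. Subunits e, g and k associate with dimers of the enzyme. Their genes TIM11, ATP20 and ATP19 fell too, with differences of -0.98 ± 0.11, -1.43 ± 0.12 and -1.38 ± 0.16. ATP20 was the dimmest of all members in arrays labelled V81G, at 9.13 ± 0.05, just above 9.03, the limit below which the dimmest 25 percent of probe sets lay. Adjusted p-values in the complex ran from 4.9e-05 to 0.0044.

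Cytochrome c oxidase passes electrons to oxygen. Of its 9 nuclear genes 8 fell, with a median of -1.06 over all 9. COX5A, the subunit V isoform used with ample oxygen (YNL052W), read 11.86, 11.91, 11.90 and 11.97 in V81G replicates 1 to 4, against 13.78, 13.73, 13.94 and 14.19 in WT replicates 1 to 4. The V81G arrays were close together, and all lay well below the WT arrays. COX5A fell by 2.00 ± 0.13, which is 4.01-fold (adjusted p = 2.9e-05), and COX4, a zinc-binding subunit, fell by 1.86 ± 0.19 (adjusted p = 2.4e-04). The small subunit genes COX8, COX9, COX13 and COX12 formed a narrow band, with differences of -1.15 ± 0.13, -1.11 ± 0.11, -1.06 ± 0.20 and -1.03 ± 0.13. COX7 fell by 0.82 ± 0.17 (adjusted p = 0.0081).

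COX6, of subunit VI, had the smallest called fall of this complex and is one of the 2 members on chromosome VIII. Its levels were 12.79, 12.76, 12.40 and 12.30 in V81G replicates 1 to 4, against 13.16, 13.15, 13.41 and 13.45 in WT replicates 1 to 4. The gap between the groups was narrow on day 1 and wider on day 2. COX6 fell by 0.73 ± 0.15 (adjusted p = 0.0098). Less the median of its chromosome the difference was -1.20. The part of the chromosome in the smaller fall was not tested.

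The bc1 complex carries electrons from coenzyme Q to cytochrome c. Its 9 genes were all lower, 8 of them past the threshold, with a median of -1.27. The core proteins COR1 and QCR2 fell, with differences of -1.34 ± 0.22 and -1.57 ± 0.24. For QCR2 the arrays read 12.39, 12.12, 11.32 and 11.57 in V81G replicates 1 to 4, against 13.07, 13.43, 13.56 and 13.59 in WT replicates 1 to 4. Both day 2 arrays labelled V81G were lower than both of day 1, and no array overlapped the other group. Its adjusted p was 0.0019.

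Of the redox subunits, the Rieske iron-sulfur gene RIP1 fell by 1.27 ± 0.15 (adjusted p = 4.9e-04) and the cytochrome c1 gene CYT1 fell by 1.32 ± 0.32 (adjusted p = 0.019). CYT1 had the widest spread of the 8 called genes of the complex. It read 11.31, 11.38, 10.06 and 10.08 in V81G replicates 1 to 4, against 12.37, 11.98, 11.95 and 11.82 in WT replicates 1 to 4. Its call was lost without WT replicate 1 (-1.21, adjusted p = 0.0646). The small subunits QCR6, QCR8, QCR7 and QCR9 fell, with differences of -1.34 ± 0.12, -1.16 ± 0.15, -1.15 ± 0.16 and -1.01 ± 0.14. A second probe set of QCR8 was dim, at 8.15 ± 0.15 and 8.43 ± 0.19 in arrays labelled V81G and WT, and differed by -0.28 ± 0.14 without passing (adjusted p = 0.21).

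QCR10, a peripheral subunit and the other member on chromosome VIII, did not pass. Its values were 11.61, 11.92, 11.14 and 11.34 in V81G replicates 1 to 4, against 12.24, 11.63, 12.32 and 12.44 in WT replicates 1 to 4. WT replicate 2 lay among the arrays labelled V81G, so the groups overlapped. The difference of -0.66 ± 0.22 had a 95% interval from -1.15 to -0.16 (adjusted p = 0.071). It passed without V81G replicate 2 (-0.80, adjusted p = 0.0412), without WT replicate 2 (-0.83, adjusted p = 0.0197) and on day 2 alone (-1.15, adjusted p = 0.00778). Less the chromosome's median the value was -1.12.

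**Figure D2:**
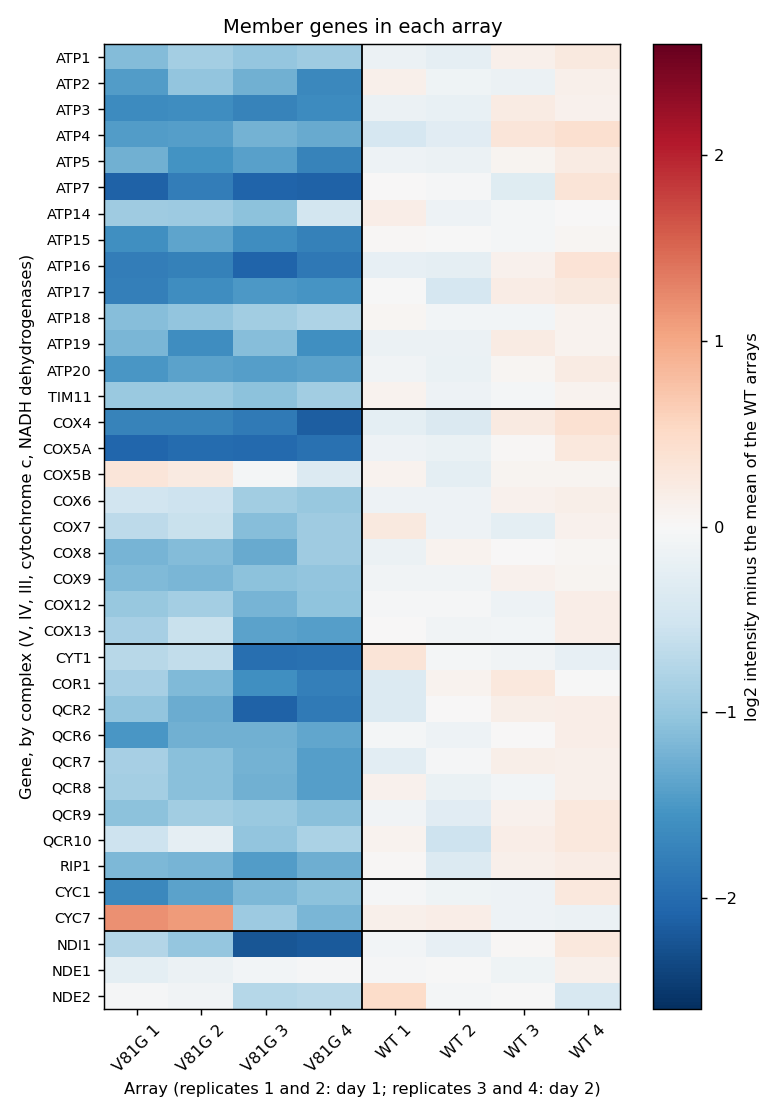
Log2 intensity of each member gene in each array less the mean of the arrays labelled WT, with arrays labelled V81G on the left. Blue is lower and red higher, and horizontal lines separate ATP synthase, cytochrome c oxidase, bc1 complex, cytochrome c and NADH dehydrogenases. The V81G columns are blue throughout ATP synthase, and CYC7 is red in V81G replicates 1 and 2 and blue in V81G replicates 3 and 4.

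Cytochrome c shuttles electrons between complexes III and IV and has 2 genes in yeast. CYC1, the major form with ample oxygen (YJR048W), read 12.56, 12.84, 13.07 and 13.16 in V81G replicates 1 to 4, against 14.20, 14.12, 14.11 and 14.50 in WT replicates 1 to 4. It fell by 1.33 ± 0.16, or 2.51-fold (adjusted p = 5.9e-04), with no overlap of arrays. CYC7, the minor form favoured at low oxygen (YEL039C), read 10.90, 10.81, 8.77 and 8.51 in V81G replicates 1 to 4, against 9.83, 9.88, 9.56 and 9.54 in WT replicates 1 to 4. Arrays labelled V81G lay above all those labelled WT on day 1 and below all of them on day 2. Over both days the difference was 0.04 ± 0.52, with a 95% interval from -1.12 to 1.20 (adjusted p = 0.97).

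Taken by day, CYC7 differed by 1.00 on day 1 (adjusted p = 0.0157) and by -0.91 on day 2 (adjusted p = 0.0141) in fits of 2 arrays per group. The day 2 difference less the day 1 difference was -1.91 ± 0.21, and this interaction passed (adjusted p = 0.00716). In the same order, CYC1 differed by -1.46 and -1.19 and its interaction did not pass (adjusted p = 0.657).

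Yeast has 3 NADH dehydrogenases in place of complex I. NDI1 faces the matrix, and NDE1 and NDE2 face the space between the membranes, where they take up NADH from the cytosol. NDI1 (YML120C) fell, and its 2 outward-facing relatives did not pass. It read 11.73, 11.49, 10.28 and 10.32 in V81G replicates 1 to 4, against 12.42, 12.28, 12.52 and 12.76 in WT replicates 1 to 4. The difference was -1.54 ± 0.33 (adjusted p = 0.01), and by day it was -0.74 on day 1 and -2.35 on day 2. That interaction, -1.61 ± 0.22, passed too (adjusted p = 0.0175).

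NDE1 was among the brightest members in both groups. It had 14.36, 14.47, 14.56 and 14.59 in V81G replicates 1 to 4, against 14.60, 14.62, 14.51 and 14.75 in WT replicates 1 to 4, with overlap. Its difference was -0.12 ± 0.12 with a 95% interval from -0.39 to 0.14 (adjusted p = 0.54). The table's highest value was 15.43, so compression near that ceiling cannot be told apart from a small difference. NDE2 read 10.46, 10.41, 9.75 and 9.79 in V81G replicates 1 to 4, against 10.96, 10.44, 10.49 and 10.09 in WT replicates 1 to 4. It also overlapped, and differed by -0.39 ± 0.23 (95% interval from -0.91 to 0.13, adjusted p = 0.31).

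COX5B, the isoform that replaces COX5A at low oxygen (YIL111W), did not follow the other genes of its complex. It read 10.48, 10.41, 10.13 and 9.82 in V81G replicates 1 to 4, against 10.27, 9.93, 10.25 and 10.25 in WT replicates 1 to 4. The groups overlapped, and the difference was 0.04 ± 0.17 with a 95% interval from -0.34 to 0.41 (adjusted p = 0.92). That interval does not reach the smallest called fall of the complex, -0.73 for COX6. By day the difference was 0.35 and then -0.28, an interaction that did not pass (adjusted p = 0.279).

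For 3 pairs of paralogs the log2 ratio of both probe sets was taken within each array and compared between groups. A probe set's own brightness cancels in this comparison, though not in a ratio itself. The ratio of COX5A to COX5B was 1.37, 1.50, 1.77 and 2.15 in V81G replicates 1 to 4, against 3.51, 3.80, 3.70 and 3.94 in WT replicates 1 to 4. It was lower in each array labelled V81G, by 2.04 ± 0.19 in the mean, or 4.11-fold. The exact permutation p was 0.0286, two-sided and the smallest that 4 against 4 arrays allow. Adjusted over the 3 pairs it was 0.0857, the lowest value that 1 pair alone can reach. The pair could not pass 0.05 unless another pair also reached the smallest p, so the adjusted value decides nothing. Fits by day gave -2.22 and -1.86.

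The CYC1 to CYC7 ratio was 1.66, 2.03, 4.30 and 4.65 in V81G replicates 1 to 4, against 4.37, 4.25, 4.55 and 4.96 in WT replicates 1 to 4. It lay below all arrays labelled WT in the day 1 arrays labelled V81G only. Each V81G array was below the WT array of the same number. The difference of -1.37 ± 0.78 did not pass (exact permutation p = 0.229, adjusted 0.343). For NDE1 to NDE2 the difference was 0.27 ± 0.32 (exact permutation p = 0.4, adjusted 0.4).

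**Figure D3:**
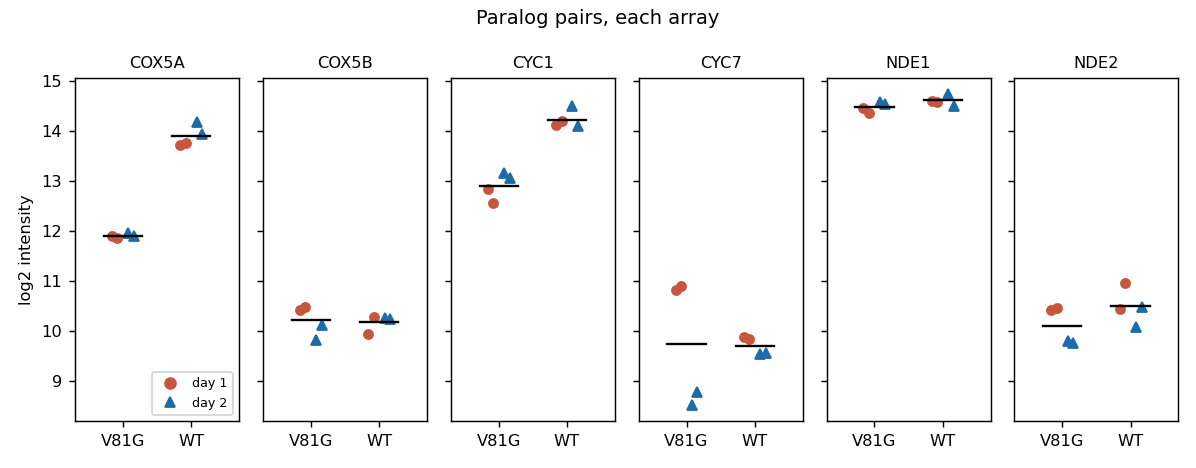
Log2 intensity of the 6 genes of the paralog pairs in each array, V81G left of WT. Circles are day 1 arrays, triangles day 2 arrays and lines group means of 4 arrays. COX5A and CYC1 separate by group, while CYC7 in arrays labelled V81G separates by day, at 10.90 and 10.81 against 8.77 and 8.51. Heights of different genes are not comparable, since each probe set has its own brightness.

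The fall of the members was larger on day 2. Their median difference was -0.997 on day 1 and -1.45 on day 2, and 33 of 37 members (89.2%) had the lower value on day 2, beside 55.7% of all genes. A difference below 0 on both days was seen for 35 members, beside 42.0% of all genes. By complex the medians on days 1 and 2 were -1.26 and -1.59 for ATP synthase, -0.91 and -1.15 for cytochrome c oxidase, and -0.88 and -1.48 for the bc1 complex. The day by group interaction was called for 1.86% of all genes and for CYC7 and NDI1 among the members. For QCR2 and CYT1 it was -1.14 ± 0.26 (adjusted p = 0.0789) and -0.98 ± 0.23 (adjusted p = 0.0912), and it did not pass.

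For 25 of the 37 members the lowest array labelled V81G was replicate 3 or 4. The share of all genes was not counted, so this is not read as a trait of the members. Over all genes the median less the WT means was -0.03, -0.03, -0.11 and -0.09 in V81G replicates 1 to 4. The median of all 37 members less their WT means was -1.11, -1.08, -1.25 and -1.35 in V81G replicates 1 to 4. In WT replicates 1 to 4 it was -0.03, -0.12, 0.03 and 0.16, which lies near 0 by construction. In ATP synthase the 4 V81G values were -1.45, -1.42, -1.34 and -1.57, against -0.05, -0.15, 0.06 and 0.17 in WT replicates 1 to 4. Here the arrays labelled WT were higher on day 2, and those labelled V81G did not separate by day.

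**Figure D4:**
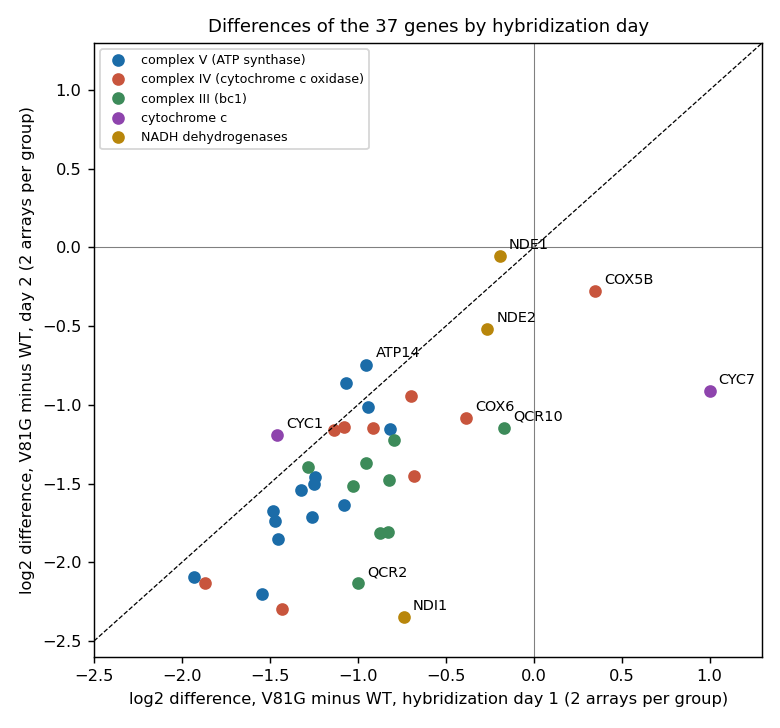
Difference of each member, V81G minus WT, on hybridization day 1 (horizontal) and day 2 (vertical), 2 arrays per group and day, in log2 units. The dashed line marks equal differences. Most points lie below the line, 33 of 37, and CYC7 is alone at the lower right, at 1.00 and -0.91.

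Falls were seen in members with WT means from 10.56 to 14.80, and the members dimmer in WT than that did not pass. Mean log2 intensities of the members spanned 9.13 to 14.49 in arrays labelled V81G and 9.70 to 14.80 in arrays labelled WT, with medians of 11.88 and 13.29. Across the 37 members the rank correlation of the WT level with the difference was 0.09. It is given as a description, since probe sets differ in brightness for other reasons. That value takes in the members that did not pass, and CYC7, COX5B and NDE2 were the dimmest in WT (9.70, 10.18 and 10.49). Among called members the brightest in WT, COX12 and ATP18 (14.80 and 14.59), differed by -1.03 and -0.96. The dimmest, ATP20 and ATP5 (10.56 and 11.24), differed by -1.43 and -1.49. COX5A, bright too (13.91), differed by -2.00. The part of brightness, or of a ceiling, in the size of a fall was not tested. In the ranking of all 5656 genes by difference, 29 members stood among the lowest 5 percent and 33 among the lowest 10 percent.

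Genes that work with the members were read from 8 further lists. Their counts stand beside 12.3% of all genes called lower and 9.21% called higher. Succinate dehydrogenase feeds electrons from the TCA cycle into coenzyme Q, and its 4 genes all fell, with differences of -1.15 ± 0.14 (SDH1), -1.76 ± 0.40 (SDH2), -1.48 ± 0.17 (SDH3) and -1.11 ± 0.33 (SDH4). The call of SDH4 (adjusted p = 0.044) did not hold under a replicate block (adjusted p = 0.051), after quantile normalization (adjusted p = 0.114) and on day 1 alone, where the difference was -0.32. It was also lost without V81G replicate 3 or 4 or WT replicate 1, 3 or 4. Their median of -1.32 was close to that of the members. SDH2 and SDH4 had called interactions with the day (-1.85 ± 0.24, adjusted p = 0.0129, and -1.59 ± 0.24, adjusted p = 0.0228), as NDI1 did.

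The subunits made inside mitochondria, with which the members assemble, differed from one another. OLI1, the rotor ring of ATP synthase, read 10.37, 9.89, 10.69 and 10.40 in V81G replicates 1 to 4, against 14.58, 14.48, 14.85 and 14.76 in WT replicates 1 to 4. ATP6, of its proton channel, read 7.40, 7.31, 7.63 and 7.55 in V81G replicates 1 to 4, against 12.05, 11.88, 12.04 and 12.10 in WT replicates 1 to 4. COX1, the catalytic subunit of complex IV, averaged 10.22 ± 0.15 in arrays labelled V81G and 13.66 ± 0.27 in arrays labelled WT (SD, n = 4 each). The 3 differences were -4.33 ± 0.18, -4.55 ± 0.12 and -3.44 ± 0.16, all larger falls than that of any member. Dimmer probe sets gave other sizes: -0.92 ± 0.14 and -0.96 ± 0.21 for COX1, both called, and 0.16 ± 0.18 for OLI1, dim in both groups and not passed (adjusted p = 0.63). The level of ATP6 in arrays labelled V81G lay under 9.03, the limit below which the dimmest 25 percent of probe sets lay. Its fall could be understated if background adds to the signal there, which was not tested.

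COB, the cytochrome b of complex III, fell by 1.48 ± 0.38 (adjusted p = 0.026) with arrays that overlapped, and its level in arrays labelled V81G, 7.75 ± 0.37, was dim as well. Its call was lost on day 1 alone (-1.02) and without V81G replicate 1, 2 or 4 or WT replicate 1, 3 or 4. A second, dimmer COB probe set had a difference of -0.78 ± 0.26, short of the threshold (adjusted p = 0.073). COX2 and ATP8 were dim in both groups and differed by -0.29 ± 0.16 and -0.37 ± 0.16 without passing. COX3 went the other way, at 10.85, 10.64, 12.37 and 12.33 in V81G replicates 1 to 4, against 10.22, 9.95, 10.80 and 10.73 in WT replicates 1 to 4. It was higher in arrays labelled V81G within each day. The difference of 1.12 ± 0.41 did not pass (adjusted p = 0.096). In the fit with a replicate block 1 gene of this list, COX3, was called higher (adjusted p = 0.0105).

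Lists of assembly factors had medians nearer to 0 than the subunits they assemble. Of 22 genes for the assembly of cytochrome c oxidase 10 fell and 1 rose, with a median of -0.55. The copper chaperone gene COX17 and PET117 fell, with differences of -1.14 ± 0.26 and -0.98 ± 0.24, while COX19 rose by 0.79 ± 0.20 (adjusted p = 0.021). Without WT replicate 1 only 3 of the 22 were called lower and none higher. COX19 was also not called without V81G replicate 3, V81G replicate 4 or WT replicate 3.

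Of 8 genes for the assembly of the bc1 complex and cytochrome c 3 fell, with a list median of -0.47. CBP4, MZM1 and CBP6 differed by -0.67 ± 0.18, -0.65 ± 0.16 and -0.60 ± 0.14. The count was 1 without V81G replicate 1 and 1 without WT replicate 1. Whether a list's median differs from that of the subunits was not tested.

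Among 12 assembly factors and inhibitors of ATP synthase 4 fell, with a median of -0.58. INH1, a small protein that blocks ATP breakdown by the enzyme, fell by 2.01 ± 0.35 (adjusted p = 0.0038), about as much as ATP7, and ATP11, a chaperone of the beta subunit, fell by 0.77 ± 0.16. ATP12, the chaperone of the alpha subunit, and ATP25 fell, with differences of -0.67 ± 0.13 and -0.67 ± 0.15. INH1 and STF2, a related stabilising factor, had interactions with the day of -1.69 ± 0.28 (adjusted p = 0.0318) and -2.33 ± 0.26 (adjusted p = 0.00768). STF2 itself did not pass (-1.03 ± 0.46, adjusted p = 0.17).

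The list for synthesis of coenzyme Q had a median of -0.19. Of its 10 genes COQ2 and COQ5 fell, with differences of -1.18 ± 0.18 and -0.72 ± 0.20, and the other 8 did not pass. Beside 12.3% of all genes called lower, this count is not read as a trait of the list. The count was 1 without V81G replicate 3, V81G replicate 4, WT replicate 1, WT replicate 2 or WT replicate 4. Of 12 other electron donors and mitochondrial carriers 7 fell, with a median of -0.68. MIR1, the phosphate carrier that supplies ATP synthase, fell by 1.61 ± 0.18 (adjusted p = 4.3e-04) and GUT2, the glycerol 3-phosphate dehydrogenase, fell by 1.19 ± 0.22.

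The ADP/ATP carriers exchange the substrate and product of ATP synthase. AAC1 and PET9 (AAC2) fell, with differences of -0.93 ± 0.14 and -0.75 ± 0.15. For AAC3, the form expressed without oxygen, the value was 0.47 ± 0.15, short of the threshold (adjusted p = 0.058), which a day block brought it past (adjusted p = 0.0385). These 3 were picked out after their values were seen.

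Transcripts of the Hap activator's own genes did not pass the test in either direction over all arrays without a block. HAP4, the subunit whose level responds to the carbon source, read 11.94, 12.28, 12.50 and 12.89 in V81G replicates 1 to 4, against 12.16, 12.26, 12.03 and 12.25 in WT replicates 1 to 4. The difference was 0.23 ± 0.19 with a 95% interval from -0.20 to 0.66 (adjusted p = 0.49). HAP2, HAP3 and HAP5, which bind DNA together, differed by -0.05 ± 0.18, -0.47 ± 0.16 and 0.35 ± 0.15. HAP1, a separate heme-responsive activator of genes such as CYC1 and CYC7, differed by 0.04 ± 0.33 at its brightest probe set. Its other probe sets differed by -0.31 ± 0.12 and -0.02 ± 0.39, and none passed the threshold. The one at -0.31 had the least spread, with SDs of 0.04 and 0.15 in V81G and WT. Its arrays did not overlap, and its 95% interval ran from -0.58 to -0.05. At an unadjusted p under 0.05, limma gave 1 lower (HAP3) and 1 higher (HAP5) of the 5 Hap genes, each by its brightest probe set. Over all 5656 genes it gave 1222 lower and 815 higher, so this count is not read as a trait of the list. HAP3 and HAP5 passed under a day block (limma adjusted p = 0.0272 for HAP3 and 0.0401 for HAP5), and HAP3 passed on day 2 alone (-0.51, adjusted p = 0.0464). Transcript levels say nothing of the activity of these proteins.

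**Figure D5:**
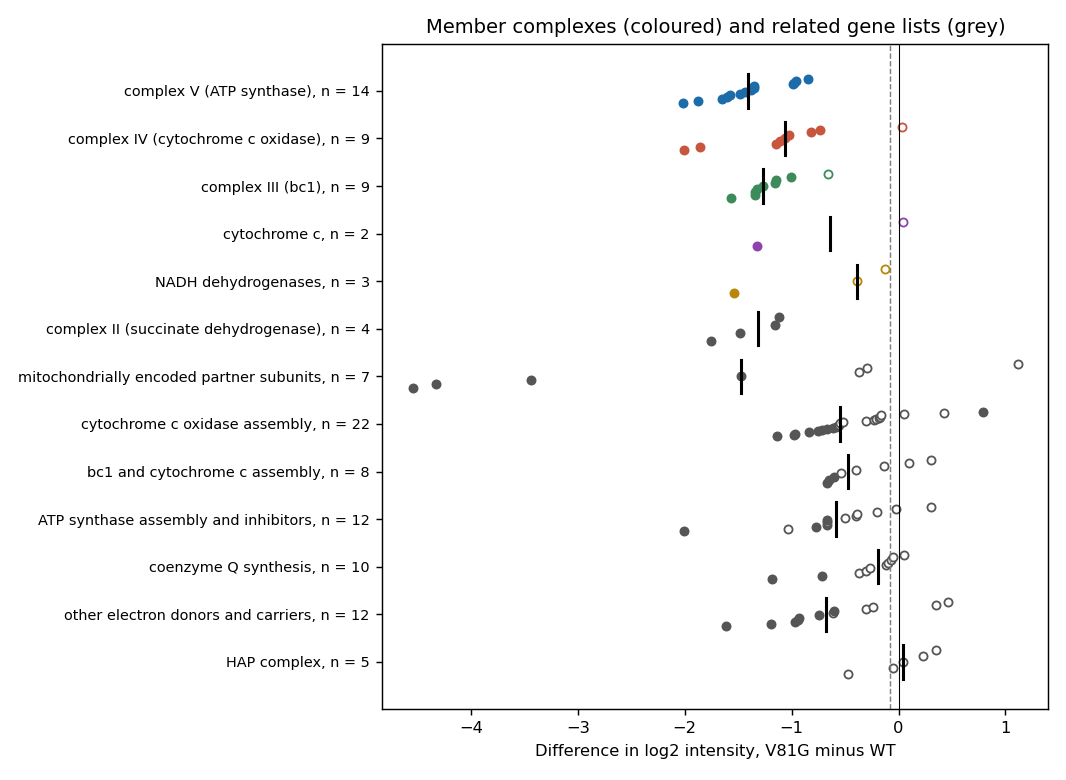
Difference in log2 intensity, V81G minus WT, of each gene of the member complexes (coloured) and of the 8 related lists (grey). Filled points passed the test, vertical bars are list medians and the dashed line is the median of all genes, -0.08. OLI1, ATP6 and COX1 lie furthest left, and the Hap genes straddle 0.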

How the data were processed

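Total RNA, 6 µg per sample, was made into biotin-labelled cRNA and hybridised to 1 Affymetrix YG_S98 array each, per the labels' protocols and the run sheets. The authors deposited 1 linear intensity per probe set and array. RMA is named in the submitters' processing notes, with no version given in the sources used here. Whether values were scaled or centred afterwards is unknown. The run sheets gave hybridization day and fluidics station.

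Of 9335 probe sets, 60 controls were left out. Gene symbols were those of the platform's annotation, brought up to date with RefSeq's R64 gene table. This gave 6504 probe sets with a single symbol, and the probe set with the highest mean stood for its gene. Log2 intensities were fitted in R 4.3.3 by limma 3.58.1's lmFit and eBayes, with no term but group and two-sided p-values, over 9275 probe sets, with Benjamini-Hochberg adjustment. A second fit held a day by group interaction. Data were simulated for V81G minus WT (9275 probe sets). Probe sets changed by 1, 2, -1 and 0.5 log2 units were recovered in 33, 45, 35 and 7 of 50 cases, with 6 false calls. For a simulated interaction of 2 log2 units, 99 of 200 were recovered. Simulated noise was the spread within groups, which takes in differences between days that the interaction fit removes. The simulation also changed 200 probe sets, while 1628 were called in the data. Recovery in the data may therefore differ from these shares, though smaller changes and some interactions could still be missed.

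Deviations from group means of same-numbered arrays correlated at 0.24, 0.23, 0.44 and 0.26, and a fit with the replicate number as a block was run. Differently numbered arrays of the same day correlated as well, at 0.22 to 0.34, and arrays of different days at -0.41 to -0.14. V81G replicates 1, 2 and 4 correlated best with another number of their own day, so the number cannot be told apart from the day as the source of the pairing. Other alternatives were the day as a block, each day alone, other normalizations, a filter on dim probe sets, a pseudocount, other eBayes settings, the mean of a gene's probe sets and leaving out each array. Members and lists were chosen with earlier results of these data known. The naming rule took, per complex, the largest fall, the smallest difference, every member that did not pass and the paralog pairs, and up to 2 rises and 2 falls per related list, with all genes of lists of 7 or fewer. Array values of COX6, CYT1, OLI1, ATP6, COX3 and HAP4, and ATP12, ATP25, CBP6, STF2 and the carriers, were added after seeing the values. The number of arrays, 4 per group, limits the precision.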

Additional observations from a re-analysis of the deposited data

Results flagged for a closer look

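Among the members, 2 groups held an array far from the other 3, and the differences of 2 genes changed between the days. In arrays labelled V81G, ATP7 was highest in replicate 2, at 9.79, while the other 3 lay between 9.48 and 9.50. Its gap to the nearest array took up 0.932 of the group's range. COX5B was lowest in WT replicate 2, at 9.93 against 10.25 to 10.27 in the other arrays labelled WT, and that gap took up 0.925 of the range. Both exceed Dixon's critical value for 4 samples. Chance alone passes it in about 1 in 20 groups, and 74 groups were examined.

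The difference of CYC7 changed between the days by -1.91 ± 0.21 (interaction, limma adjusted p = 0.00716) and that of NDI1 by -1.61 ± 0.22 (adjusted p = 0.0175). For CYC7 the sign of the difference turned. For NDI1 the fall was larger on day 2, and its interaction did not pass without V81G replicates 1, 3 or 4 or WT replicates 2 or 4, with adjusted p from 0.0728 to 0.101. Days also differ in fluidics station between the groups, and the part of the station in these values was not tested.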

How the results depend on the processing

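Each member's difference was recomputed under 18 alternatives, and of the 32 called members 26 passed under every one of them. The exceptions were COX6, COX7, COX13 and COR1 on day 1 alone (-0.38, -0.70, -0.68 and -0.88), ATP14 on day 2 alone (-0.74) and CYT1 without WT replicate 1 (-1.21). CYC7 was 1.00 on day 1 alone and reversed to -0.91 on day 2 alone. Fits within a day hold fewer arrays. With the replicate number as a block, and with the day as a block, the same 32 members were called. Both blocks called 1 mitochondrially encoded gene (COX3) higher. The replicate block also ended the call of SDH4, which left 3 genes of succinate dehydrogenase lower, and changed no other call among the members and related lists. The paired exact p was then 0.188 after adjustment for the COX5A to COX5B ratio (-2.04) and also for the CYC1 to CYC7 ratio (-1.37). The smallest unadjusted p possible there is 0.125, so neither ratio could pass. The day block also called 1 higher gene among donors and carriers (AAC3), and 1 lower (HAP3) and 1 higher (HAP5) Hap gene. In the assembly lists it further called PET100, CBP3 and STF1 lower (limma adjusted p = 0.0366, 0.0415 and 0.0329).

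Day 1 alone gave 1 member higher (CYC7, 1 of cytochrome c). Medians were -0.997 for all members, -1.26 for ATP synthase, -0.91 for cytochrome c oxidase (5 genes lower), -0.88 for the bc1 complex, -1.02 for mitochondrially encoded subunits, -0.39 for oxidase assembly (0 higher) and -0.55 for donors and carriers (3 lower), with 1 lower gene of coenzyme Q synthesis. Day 2 alone gave medians of -1.45 for all members, -1.59 for ATP synthase, -1.78 for succinate dehydrogenase, -1.94 for mitochondrially encoded subunits (1 higher), -0.38 for oxidase assembly (5 lower), -0.34 for bc1 assembly (0 lower) and -0.80 for donors and carriers. Both cytochrome c genes (2) and 1 Hap gene were lower on that day.

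Quantile normalization gave a member median of -1.11, -0.51 for donors and carriers (1 higher) and 1 lower gene of coenzyme Q synthesis. Oxidase assembly had a median of -0.59 with arrays centred on their medians and -0.53 with 50 added to each intensity. Without dim probe sets the median was -3.88 for mitochondrially encoded subunits and -0.27 for bc1 assembly (1 lower). These are medians of fewer genes, since COX2, ATP8 and COB left the first list and CBP4 and MZM1 the second. With fewer probe sets tested, 1 donor or carrier was called higher.

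Leaving out 1 array at a time gave member medians from -1.31 to -1.13. Medians ran from -1.85 to -1.23 for mitochondrially encoded subunits (0 to 1 higher), from -0.57 to -0.49 for oxidase assembly (3 to 9 lower, 0 to 1 higher) and from -0.11 to 0.31 for the Hap genes. Lower genes numbered 1 to 4 in bc1 assembly and 1 to 2 in coenzyme Q synthesis, and 1 to 2 members had a called interaction.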
